A study of Homo sapiens with 3 samples.

Results

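The zinc transporters, the metallothioneins and the zinc-sensing transcription factor MTF1 were examined in RNA-seq of 22Rv1 WT cells. The set was given by name and not by level. It holds the 10 SLC30 genes SLC30A1 to SLC30A10, the 14 SLC39 genes SLC39A1 to SLC39A14, 10 metallothionein genes and MTF1, which makes 35 of the 27024 genes counted in the files. All 35 had a row. SLC39A4 and SLC39A11 stood on more than 1 row with the same reads in each library, as did SLC39A7, and each was counted once. The line 22Rv1 derives from a human prostate carcinoma. The WT cells are the unedited reference for lines in which an enhancer was deleted, or a base in it linked to prostate cancer risk was mutated. The authors describe the WT cells as homozygous for the non-risk G allele at that base, and the mutation as introducing the risk A allele. The 3 WT libraries, numbered as replicates 1 to 3, came from total RNA of cells kept in RPMI1640 medium with serum and antibiotics, and the labels name no added metal. The edited lines were not analysed here, so the data describe 1 group and hold no comparison between genotypes. The sources describe the WT samples in different ways, as clones, as replicates and as lines, so whether the SD over them is a spread between clones or between cultures is unknown.

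Zinc is moved across membranes by both transporter families in opposite directions. SLC30 proteins (ZnT) carry zinc out of the cytosol, either out of the cell or into organelles, and SLC39 proteins (ZIP) carry it into the cytosol from outside or from organelles. Metallothioneins are small cysteine-rich proteins that bind cytosolic zinc and copper, and their genes are switched on by MTF1, which binds metal response elements when zinc rises. The normal prostate epithelium is known for a high zinc content, which falls in prostate cancer.

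The promoters were searched for the sequence on which this control rests. Metal response elements share the core TGCACNC or TGCGCNC, and this core was searched on both strands in the 250 bases before the start of each gene in a RefSeq table of promoters (GRCh38.p14). At least 1 match was present in 24.7% of 27305 promoters in the table, and 3 or more matches in 1.56%. The table held 26 of the 35 genes. MT1A, MT1E, MT1F, MT1G, MT1M, MT3, SLC30A8, SLC39A4 and SLC39A14 were not among them. The 4 metallothionein promoters printed here are the only ones of the family in the table and were not chosen by level. Each match is in capitals (on the minus strand a match reads GNGTGCA or GNGCGCA), 5′ to 3′, on the plus strand of chromosome 16. MT2A spans chr16:56608334-56608583, MT1X spans chr16:56682220-56682469, MT1H spans chr16:56669564-56669813 and MT1B spans chr16:56651636-56651885.
MT2A: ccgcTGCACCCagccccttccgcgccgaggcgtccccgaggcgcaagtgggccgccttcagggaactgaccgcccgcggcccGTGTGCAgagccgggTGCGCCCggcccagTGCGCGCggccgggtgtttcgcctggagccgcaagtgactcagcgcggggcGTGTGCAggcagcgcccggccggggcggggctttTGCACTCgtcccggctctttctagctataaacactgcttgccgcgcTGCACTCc
MT1X: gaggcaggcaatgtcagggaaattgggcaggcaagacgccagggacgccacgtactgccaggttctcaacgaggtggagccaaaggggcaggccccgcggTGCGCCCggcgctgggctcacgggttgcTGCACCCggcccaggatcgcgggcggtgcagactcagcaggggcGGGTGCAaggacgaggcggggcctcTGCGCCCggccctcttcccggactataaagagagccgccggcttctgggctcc
MT1H: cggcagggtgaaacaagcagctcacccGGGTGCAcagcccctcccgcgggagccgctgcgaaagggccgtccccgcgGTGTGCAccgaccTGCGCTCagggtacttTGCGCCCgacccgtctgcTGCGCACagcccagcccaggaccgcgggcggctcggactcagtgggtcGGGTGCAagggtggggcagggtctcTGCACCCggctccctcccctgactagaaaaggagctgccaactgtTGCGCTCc
MT1B: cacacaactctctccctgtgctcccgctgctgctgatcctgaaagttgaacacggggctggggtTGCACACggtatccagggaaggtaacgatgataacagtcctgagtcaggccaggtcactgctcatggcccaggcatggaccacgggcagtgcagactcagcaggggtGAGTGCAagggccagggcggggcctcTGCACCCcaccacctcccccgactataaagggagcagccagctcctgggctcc
MT1H held 8 matches, MT2A held 7, MT1X held 4 and MT1B held 3, and none of them overlapped another match. The 2 expressed genes, MT2A and MT1X, held 11 matches together, and the 2 genes that were not expressed, MT1H and MT1B, also held 11. The number of matches therefore did not order these genes by level. A match was found in 5 of the 9 SLC30 promoters, with 3 in SLC30A2, 2 in SLC30A3 and 1 each in SLC30A1, SLC30A4 and SLC30A6. Among the 12 SLC39 promoters it was found in 2, SLC39A3 and SLC39A6 with 1 each. The promoter of MTF1 held 0. A match to these letters is not evidence of binding.

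The unit of all levels is the normalized count as deposited by the authors, reads per gene over 1 size factor for each library. The size factors were 1.27, 1.18 and 1.27 in replicates 1, 2 and 3, and the reads recovered with them came to 38252744, 35675670 and 38629080. A count of 0 allows up to 3 reads, or between 2.36 and 2.54 normalized counts, for counting error only. A gene was called expressed at 1 CPM (edgeR's depth-scaled count, on TMM-scaled library sizes) or more in all 3 libraries. The cells had the markers of their labelled origin, since 9 of 9 genes of prostate luminal epithelium were expressed. Of the stromal markers 1 of 4 was expressed (COL1A1, at 261 normalized counts), and of the leukocyte markers 1 of 3 (CD68, at 66.6), with CD3E at 0 and PTPRC at no more than 1 read in a library.

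By this rule 23 of the 35 genes (65.7%) were expressed, compared with 12877 of all 27024 counted genes (47.7%). All 35 are protein-coding, while the counted genes also include antisense genes such as A1BG-AS1 and pseudogenes such as ABCC6P1. Neither these shares nor the medians below therefore compare like sets of genes. The SLC39 family was expressed most widely, in 11 of 14 genes, followed by SLC30 with 6 of 10 and the metallothioneins with 5 of 10. The expressed genes were separated from the others by a gap. The least abundant of them, SLC30A4, had 112 ± 17.6 normalized counts (SD, n = 3), and the most abundant of the 12 others, SLC30A10, had 19.1, with no more than 36 reads in any library for any of the 12. The median over the 23 expressed genes was 1832 normalized counts, against 1113 over all expressed genes, and 16 of the 23 lay above the latter. Long transcripts give more reads than short ones at the same abundance, so genes were compared with each other per kilobase of their canonical transcript. On that scale the median of the 23 genes was 739 normalized counts per kilobase and that of all expressed genes with a known length 315, and 17 of the 23 lay above it.

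**Figure D1:**
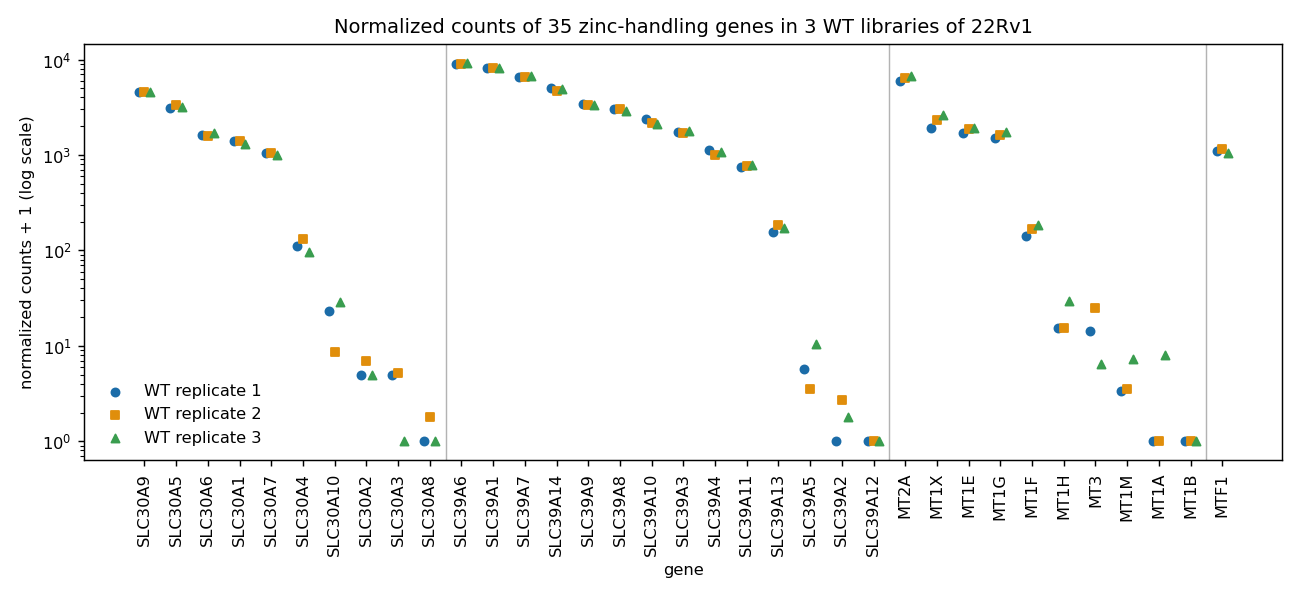
Normalized counts plus 1 (log axis) of the 35 genes in WT replicates 1, 2 and 3, with the SLC30, SLC39 and metallothionein genes and MTF1 separated by vertical lines and ordered by mean. SLC39A6 at 9079 is the highest gene, the 23 expressed genes have means of 112 or more, and the 12 others have means of 19.1 or less.

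Of the SLC30 genes that act in export at the plasma membrane, SLC30A1 was expressed and SLC30A10 was not. SLC30A1, the plasma membrane exporter that is a classical MTF1 target, had 1402, 1411 and 1298 normalized counts in replicates 1, 2 and 3, with a mean of 1370 ± 62.7 (SD, n = 3). Replicate 3 was the lowest and the other two were nearly equal. SLC30A10, which mainly carries manganese out of cells, had 28, 9 and 35 reads. The family members that load vesicles in specialised cells were low. SLC30A4 had 109, 130 and 95.3 normalized counts and was the only one of them above 1 CPM. SLC30A2, a transporter of secretory vesicles in the mammary gland, had between 3.9 and 5.9 normalized counts. SLC30A3, which fills synaptic vesicles with zinc, had 4.0, 4.2 and 0, and SLC30A8, which does so in the insulin granules of the pancreatic beta cell, had 1 read in replicate 2 and 0 in both other libraries. Both lay near or below the floor of 3 reads.

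The SLC30 genes of the early secretory pathway and the mitochondrion made up most of the family's signal. SLC30A9, the mitochondrial zinc exporter, had 4529, 4533 and 4609 normalized counts, a mean of 4557 ± 45.3 (SD, n = 3), and took 38.2% ± 0.556 of the family's reads. SLC30A5, which pairs with SLC30A6 to supply zinc to enzymes made in the secretory pathway, had 3087, 3319 and 3185 normalized counts and took 26.8% ± 0.732. The values of SLC30A9 were all above those of SLC30A5 as counts, but its transcript is longer (6164 against 3992 bases). Per kilobase SLC30A5 was first with 801 and SLC30A9 second with 739, and their 3 values did not overlap. This order depended on the length used, since over the union of all annotated exons SLC30A9 had 633 per kilobase and SLC30A5 had 588. SLC30A6 followed with 1610, 1589 and 1690 normalized counts and 320 per kilobase, SLC30A1 with 233 per kilobase, and SLC30A7, which acts in the same pathway as SLC30A5, with 1056, 1039 and 986 normalized counts and 125 per kilobase. SLC30A4 was last of the expressed genes with 15.7 per kilobase. The ranges of neighbours in this order did not overlap from SLC30A5 down to SLC30A10, while SLC30A10, SLC30A2, SLC30A3 and SLC30A8 overlapped their neighbours. Summed by role, the 3 genes of the early secretory pathway reached 1246 ± 26.2 normalized counts per kilobase (SD, n = 3), the plasma membrane exporters 235 ± 9.50 and the 4 vesicle loaders 18.1 ± 3.56.

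The SLC39 importers reached higher levels. SLC39A1, the plasma membrane importer most often linked to zinc uptake in the prostate, had 8060, 8109 and 8241 normalized counts, a mean of 8137 ± 93.6 (SD, n = 3) and the highest level of the family per kilobase, 3992 ± 45.9. The gene lies at chr1:153931575-153940660 on the minus strand of GRCh37. A second annotated gene on the same strand, ENSG00000285779, contains 95.6% of the 150-base windows of its transcript, but that identifier has 0 rows in the files. Over the union of annotated exons SLC39A6 was first with 2465 per kilobase and SLC39A1 second with 2402. SLC39A3, of the same ZIP II subfamily, had 1741, 1707 and 1790 normalized counts and 1277 per kilobase. ENSG00000267001, an overlapping gene on the same strand, contains 21.0% of the 150-base windows of the SLC39A3 transcript. The level and rank of SLC39A3 are less certain for that reason. SLC39A2, the third member, had 0, 2 and 1 reads, all below the floor. Per kilobase of canonical transcript SLC39A1 was 4.99 times SLC30A5, the first gene of each family compared. Over the union of annotated exons SLC39A6 and SLC30A9 were first instead, so this multiple depends on the length used.

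The LIV-1 subfamily (named after SLC39A6, a gene found in breast cancer cells as responsive to estrogen) contributed 7 expressed genes of 9. SLC39A6, at chr18:33688494-33709348, had the most normalized counts of all 35 genes, with 8944, 9079 and 9213 in replicates 1, 2 and 3, and took 22.2% ± 0.393 of the family's reads. SLC39A10, its partner in a plasma membrane complex, was lower, with 2381, 2182 and 2133 normalized counts. SLC39A7, which releases zinc from the endoplasmic reticulum, had 6587, 6503 and 6662, and its 2729 per kilobase placed it second in the family, just above SLC39A6 with 2546. SLC39A14 and SLC39A8, which carry manganese and iron as well as zinc, had 4856 ± 212 and 2984 ± 61.7 normalized counts (SD, n = 3). SLC39A14 was highest in replicate 1 with 5039 and lowest in replicate 2 with 4624, and SLC39A8 lay between 2915 and 3032. SLC39A4, the importer of dietary zinc whose loss causes acrodermatitis enteropathica, was expressed with 1131, 988 and 1080 normalized counts, outside the intestine where it is best known. SLC39A13, a Golgi and vesicle transporter required in connective tissue, had 154, 184 and 170. SLC39A5, known from pancreas and gut, had 6, 3 and 12 reads, and SLC39A12, known from brain, had 0 in all libraries.

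The remaining subfamilies hold 1 human gene each. SLC39A9, a transporter of the Golgi, had 3393, 3336 and 3369 normalized counts, and its coefficient of variation of 0.856% was the smallest of the expressed genes in the set. SLC39A11 had 748, 767 and 779. In the family's order per kilobase, SLC39A1, SLC39A7, SLC39A6, SLC39A3, SLC39A14, SLC39A8, SLC39A9, SLC39A4, SLC39A10, SLC39A11, SLC39A13 and SLC39A5 followed each other with no overlap between neighbours, from 3992 down to 2.79. SLC39A2 and SLC39A12 overlapped at the bottom. The LIV-1 subfamily summed to 8268 ± 103 normalized counts per kilobase (SD, n = 3) and the ZIP II subfamily to 5270 ± 72.0. The whole SLC39 family reached 14441 ± 153 per kilobase and the SLC30 family 2239 ± 27.8. The ratio was 6.45 ± 0.135 and lay between 6.29 and 6.54 in the 3 libraries. Over the union of all annotated exons it was 4.83, so its size depends on the length used. The ratio concerns RNA and not the amount of transporter protein.

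The metallothioneins split into genes with high levels and genes with almost none. MT2A had 5916, 6338 and 6700 normalized counts in replicates 1, 2 and 3, a mean of 6318 ± 392 (SD, n = 3), which took 51.6% ± 1.03 of the reads on metallothioneins. With a transcript of 401 bases it reached 15755 per kilobase, and 99.1% of the expressed genes with a known length had a lower level. MT1X had 1920, 2297 and 2612 normalized counts and 5634 per kilobase. MT1G had 1489, 1637 and 1725 with 3944 per kilobase, and MT1E had 1713, 1857 and 1927 with 2456. MT1F was the last expressed gene with 141, 167 and 185 and 386 per kilobase, so that MT2A exceeded it by 40.8 times on this scale, and by 78.0 times over the union of all annotated exons. On that length MT1X, with 1318 per kilobase, came after MT1G with 2153 and MT1E with 1742. In each of these 5 genes replicate 1 was the lowest and replicate 3 the highest library, and their order per kilobase was without overlap down to MT1H. MT1H had 18, 17 and 36 reads, and MT3, a form known from brain, had 17, 28 and 7. MT1M had 3, 3 and 8 reads, MT1A had 0, 0 and 9, and MT1B had 0 in all libraries. The family summed to 28273 ± 2345 normalized counts per kilobase (SD, n = 3), 1.96 ± 0.157 times the SLC39 family and 12.6 ± 0.984 times the SLC30 family. Over the union of exons the same ratios were 1.34 and 6.48, so their size depends on the length used.

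The genes lie together on chromosome 16 (GRCh37), from MT3 at chr16:56622986-56625000 to MT1X at chr16:56716382-56718108, over 95.1 kb. Measured between leftmost bases, MT3 lay at -19.5 kb from MT2A, MT1E at 16.9 kb, MT1M at 24.1 kb, MT1A at 30.1 kb, MT1B at 43.3 kb, MT1F at 49.1 kb, MT1G at 58.1 kb, MT1H at 61.2 kb and MT1X at 73.9 kb. MT1G is on the minus strand and the others on the plus strand. Genes above and below the expression threshold were interleaved along the cluster. MT1M, MT1A and MT1B lay between MT1E and MT1F, and MT1H lay between MT1G and MT1X, which were both expressed. Similar sequences limit how well the copies can be told apart. No 150-base window of the canonical transcripts was shared between metallothioneins, whereas 50-base windows were shared with at least 1 other annotated gene, a metallothionein, a pseudogene or an overlapping gene, for 11.1% of MT2A, 10.3% of MT1E, 19.9% of MT1G, 20.4% of MT1H and 51.0% of MT1X. MT1X also shared 6.67% of its 150-base windows with ENSG00000259827, an overlapping gene on the same strand with 0 rows in the files. MT1B shared 20.9% of its 50-base windows with ENSG00000259923, which overlaps it on the same strand. How reads that map to several places or fall in several genes were counted is not given in the sources used here. Low counts of MT1H, MT1M and MT1A, and the 0 of MT1B, are therefore uncertain. The level and rank of MT1X, which had the largest shared part, and its differences between libraries are uncertain for the same reason.

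**Figure D2:**
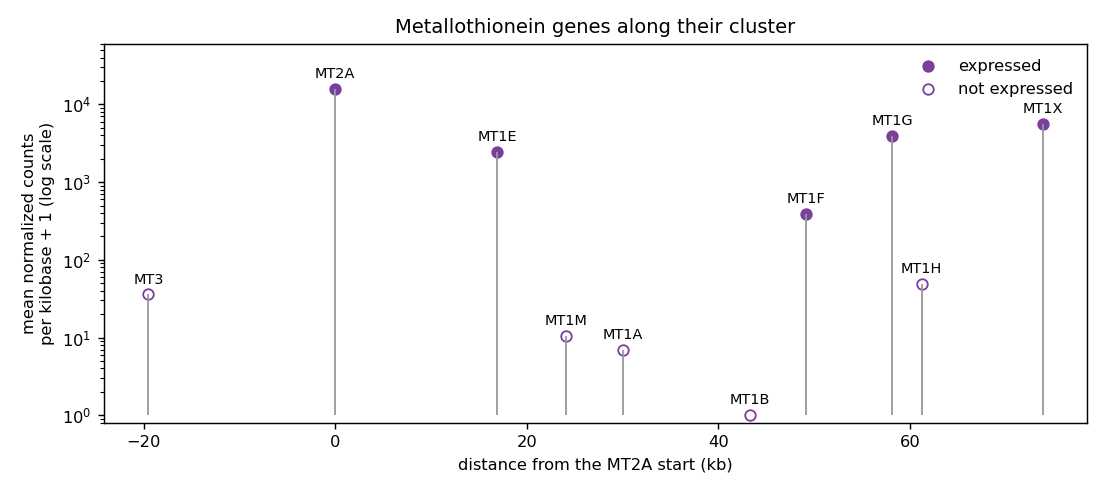
Mean normalized counts per kilobase plus 1 (log axis) of the 10 metallothionein genes against the distance of their leftmost base from that of MT2A in kilobases. Filled circles are the 5 expressed genes and open circles the 5 others, and MT1M, MT1A and MT1B, at 9.38 or less, lie between MT1E at 2456 and MT1F at 386.

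MTF1, the factor that switches on the metallothioneins and SLC30A1, was itself expressed at a moderate level. It had 1099, 1160 and 1039 normalized counts, a mean of 1099 ± 60.5 (SD, n = 3), near the median of all expressed genes. Per kilobase it reached 139, and 29.8% of the expressed genes with a known length had a lower level. Its transcript is long, with 7937 bases.

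The spread between the 3 WT libraries was small for most importers and larger for the metallothioneins. The coefficient of variation of the expressed SLC39 genes had a median of 2.07% (from 0.856% to 8.72%), that of SLC30 genes 3.60% (from 0.994% to 15.8%) and that of metallothioneins 7.36% (from 5.96% to 15.2%). Over all expressed genes the median was 4.88%. Among the 15 transporters with a mean of at least 500 normalized counts, the ratio of replicate 3 to replicate 1 lay between 0.893 and 1.05. For the 5 expressed metallothioneins, of which MT1F had fewer counts than that, it lay between 1.12 and 1.36, outside that range. The other ratios overlapped. For replicate 2 over replicate 1 the metallothioneins lay between 1.07 and 1.20 and the transporters between 0.873 and 1.08, and for replicate 3 over replicate 2 between 1.03 and 1.13 and between 0.916 and 1.09. The family as a whole had 11209, 12335 and 13196 normalized counts in replicates 1, 2 and 3, while SLC39 had 41216, 40487 and 41266 and SLC30 had 11824, 12040 and 11895.

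**Figure D3:**
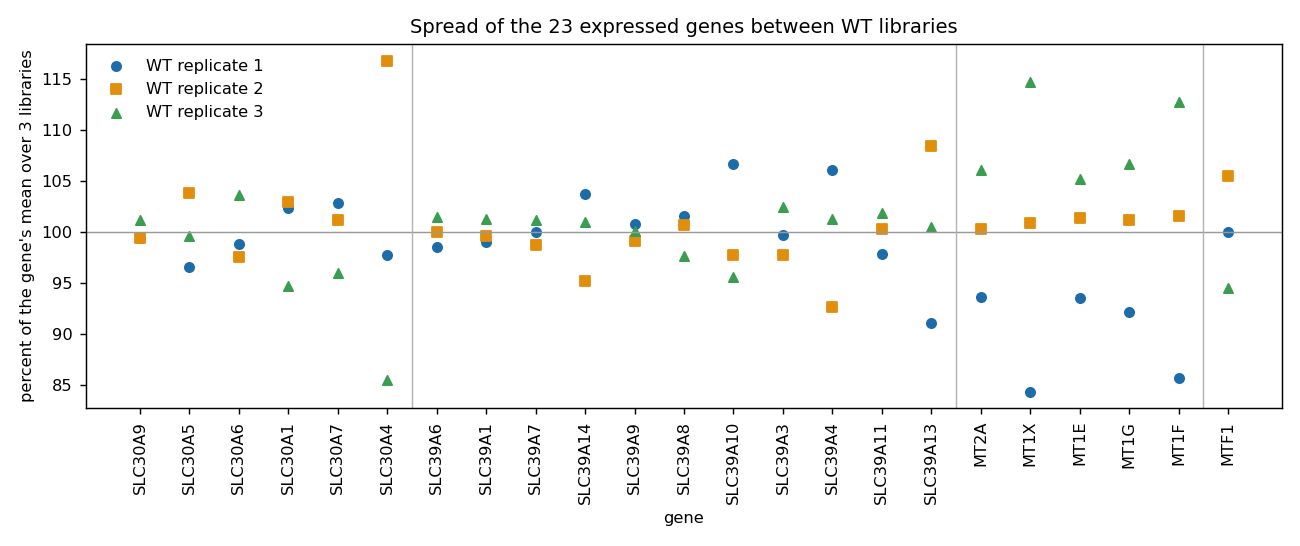
Normalized counts of the 23 expressed genes in each WT library as a percent of the gene's mean over the 3 libraries, grouped as SLC30, SLC39, metallothioneins and MTF1. For the 5 metallothioneins replicate 1 lies below and replicate 3 above the mean in each case, an order (1, 2, 3 from low to high) shared by 4 of the 17 expressed transporters.

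These differences were first tested against sampling noise alone, by comparing the recovered reads of each gene with the TMM library sizes in a chi-square test, over the 14646 genes that averaged 10 or more reads, with Benjamini-Hochberg adjustment over all of them. Of those genes 41.9% had an adjusted p under 0.05, so the libraries in general differed by more than sampling noise. Of the 26 tested genes of the set 13 did so (50%), a share near that background. By family they were 6 of 7 metallothioneins, 3 of 7 SLC30 genes, 3 of 11 SLC39 genes and MTF1. MT1H, MT3 and SLC30A10 were among them though not expressed, and MT3 was lowest in replicate 3, unlike the expressed metallothioneins. The smallest adjusted p values were those of MT1X (6.3e-27) and MT2A (1.05e-11), followed by SLC39A14 (0.000155), MT1G (0.000202) and SLC39A10 (0.000294). MT1F, with the fewest reads of the expressed metallothioneins, had an adjusted p of 0.0549. SLC30A5 (0.0157), MTF1 (0.0329) and SLC30A1 (0.0469) passed the threshold by less.

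With the spread between replicates allowed for, by adding the trended dispersion that edgeR fitted to the same libraries, 0.416% of the 14646 genes passed and 1 of the 26 genes of the set, MT1X. Its adjusted p was 0.00454 in this test, against 0.991 for MT2A and values close to 1 for MT1G, MT1E and MT1F. At an unadjusted p under 0.05, 2 of the 26 genes passed, MT1X and MT3, beside 5.47% of all tested genes. The call for MT1X needed replicates 1 and 3. Without replicate 2 its adjusted p was 0.0003, without replicate 1 it was 0.998 and without replicate 3 it was 0.557, in fits chosen after seeing the data. The higher values of the other metallothioneins in replicate 3 did not pass the threshold once the general spread between these libraries was counted in.

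Short transcripts were compared with each other, since the transcripts of the 5 expressed metallothioneins have between 401 and 746 bases. Of all expressed genes 15.6% had replicate 1 lowest, replicate 2 between and replicate 3 highest, and among the 476 expressed genes with a canonical transcript of at most 800 bases it was 19.7%. The median ratio of replicate 3 to replicate 1 was 1.01 over these short genes (quartiles 0.933 and 1.08), 0.999 over all expressed genes and 1.15 over the 5 metallothioneins. MT1X exceeded 97.0% of the other short genes in this ratio, MT1F 96.2%, MT1G 88.7%, MT2A 85.8% and MT1E 84.7%. In the ratio of replicate 3 to replicate 2 the figures were lower, with 87.0% for MT1X, 82.0% for MT1F, 65.8% for MT2A, 65.4% for MT1G and 59.2% for MT1E. Reads were also corrected for a trend with transcript length and GC content in each library, after seeing the data. Then 36.5% of all genes passed the test against sampling noise and 9 of the 26, among them the same count of 6 metallothioneins, again with MT1H and MT3, which were not expressed. In this test 4 genes no longer passed, MTF1 with an adjusted p of 0.442, SLC39A4 with 0.217, SLC30A1 with 0.125 and SLC30A5 with 0.0753. With the trend removed and the dispersion added, 0.3% of all genes passed and again 1 of the 26, MT1X, with an adjusted p of 0.00298.

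**Figure D4:**
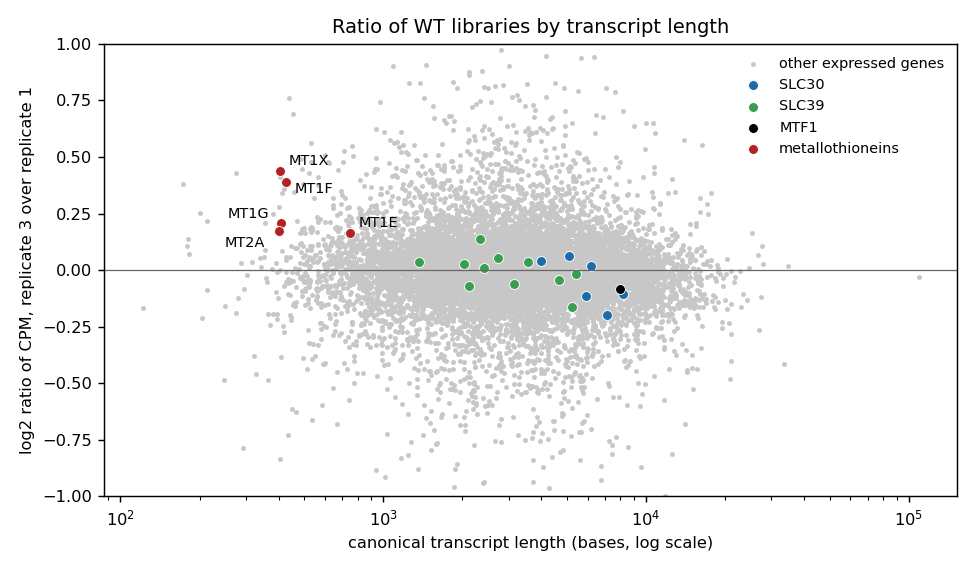
Log2 ratio of CPM in replicate 3 over replicate 1 against canonical transcript length in bases (log axis), for 12821 expressed genes with a known length, of which 21 lie outside the plotted range. The 5 metallothioneins lie above 0 at the short end, while the transporters and MTF1 scatter on both sides of 0.

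Other genes were read beside the metallothioneins in the same libraries, and their part in the metallothionein values was not tested. MTF1 was highest in replicate 2 and lowest in replicate 3, as was SLC30A1. The stromal markers summed to 302, 251 and 269 normalized counts in replicates 1, 2 and 3, of which COL1A1 made up most, and the leukocyte markers to 80.6, 60.9 and 59.8. The stromal marker DCN, below the expression threshold, had 26, 1 and 5 reads and passed the test with the dispersion added, with an adjusted p of 0.0436. Replicate 1, where the metallothioneins were lowest, was the highest library for both marker sums and for DCN. The stromal markers PDGFRA, with 4, 7 and 5 reads, and COL1A2, with 0, 1 and 0, were highest in replicate 2. COL1A1 and CD68, which made up most of the sums, had adjusted p values of 0.348 and 0.145 against sampling noise. The luminal markers summed to 101898, 102191 and 103120. FTL, the light chain of ferritin, with a transcript of 871 bases, had 10528, 10544 and 11772 and was also highest in replicate 3. FTH1, the heavy chain, had 10363, 10708 and 10845, lowest in replicate 1 and highest in replicate 3, and the transferrin receptor TFRC had 11759, 11610 and 11389, highest in replicate 1 and lowest in replicate 3. Within the family, the share of MT2A in the reads was lowest and that of MT1X highest in replicate 3. The share of MT2A was 52.8%, 51.4% and 50.8% in replicates 1, 2 and 3 and that of MT1X was 17.1%, 18.6% and 19.8%, while MT1E took 15.3%, 15.1% and 14.6% and MT1G 13.3%, 13.3% and 13.1%.

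Other genes that handle zinc were read from a list of 14 names, of which 8 had a row and 6 were expressed. The list gives some genes under both an older (CBWD) and a newer (ZNG1) symbol, so a name without a row is not always a missing gene. ZNG1A, a chaperone that delivers zinc to proteins, had 2960 ± 111 normalized counts (SD, n = 3), and its relatives ZNG1B and CBWD5 had 980 ± 69.0 and 529 ± 42.1. These are near-identical copies, so the division of reads between them is uncertain. TRPM7, a channel that passes zinc with magnesium and calcium, had 2778 ± 143, and MCOLN1, a lysosomal channel, 798 ± 19.2. The zinc-sensing receptor GPR39 had 0 reads, and TMEM163, a vesicular zinc exporter, had 1, 3 and 0. Against sampling noise 5 of the 6 tested differed between the libraries, where 41.9% of all genes did, and 0 with edgeR's dispersion added (0 also at an unadjusted p under 0.05), where 0.416% of all genes passed. Of 13 names of other metallothionein loci 4 had a row and 0 were expressed. MT4, MT1HL1 and MT1JP were at 0, and MT1L, a gene of the same cluster, had 24, 56 and 40 reads, highest in replicate 2.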

How the data were processed

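Expression was measured by RNA-seq in 3 WT libraries of 22Rv1. The authors aligned 150-base read pairs with HISAT2 (GRCh37, GENCODE genes), and used HTSeq for the counts and DESeq2 for their normalization. The GENCODE release, strandedness and treatment of multimapping reads are not given in the sources used here. Each deposited value is a signal, the reads of a gene over the size factor of its library, with 1 decimal. Dividing by the smallest step recovered whole reads for 100%, 99.957% and 100% of the values of replicates 1, 2 and 3, within 0.051 of the deposited value. Adjacent rows that held equal reads throughout, not all 0, were merged, removing 1976 of 29000 rows. Symbols matched 86.1% of the identifiers.

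Lengths and positions came from GENCODE release 44 lifted to GRCh37, 1 canonical transcript per gene, without correction for fragment size. TMM factors came from edgeR 4.0.16 (R 4.3.3), and DESeq2 1.42.0 gave alternative size factors. The biological coefficient of variation in common to all genes was 5.59%. Homogeneity tests were run in scipy 1.17.1 for genes averaging 10 or more reads, Benjamini-Hochberg adjusted over all of them, and were tested on simulated data. The length and GC correction was a lowess fit in statsmodels 0.14.6. Figures were drawn with matplotlib 3.10.9. The p-values measure the spread between these 3 libraries, which may be technical. Floors cover counting error only.

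The genes, the lists of other genes and the markers were chosen with earlier results of these data known. All 35 genes are named, and at most 5 of each other list by mean level, with those at or near 0 and MT1L named after their values were seen. With 1 group, no comparison of genotypes was made. Alternatives were other scalings, minimum counts, expression thresholds, lengths, unmerged rows, added dispersion and leaving out each replicate.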

Additional observations from a re-analysis of the deposited data

How the results depend on the processing

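The number of expressed genes was 23 or 24 under all 7 alternatives (other thresholds, unmerged rows and each replicate left out), and the 105 levels in normalized counts under other scalings moved by at most 6.08%. Without 1 replicate the levels of 7 genes, none of them expressed (MT1A, MT1M, MT3, SLC30A3, SLC30A8, SLC39A2 and SLC39A5), moved by over 1.5 times. The number of genes whose reads differed between the libraries was 13 with DESeq2 size factors, library totals or unmerged rows, 14 with a minimum of 1 read and 10 with a minimum of 50, but 1 with the dispersion added (61 of all genes against 6141) and 1 with the length and GC trend removed as well, an alternative chosen after seeing the data. Without 1 replicate it lay between 6 and 9, where the share of all genes fell as well, from 41.9% to between 22.7% and 27.0%. It was 8 without replicate 1 and 6 without replicate 2. Computed per kilobase, the share of SLC30A9 was 33.0%, that of SLC39A6 17.6% and that of MT2A 55.8%. With the union of all annotated exons as the length, MT2A had 6912 per kilobase and kept rank 1, whereas SLC30A5 with 588 and SLC39A1 with 2402 fell to rank 2 behind SLC30A9 and SLC39A6. MT1X fell to rank 4 with 1318, and SLC39A3 fell from rank 4 to rank 6 with 394, behind SLC39A14 and SLC39A9. In all, 22 levels per kilobase moved by more than 1 SD with this length, and 12 did not. No paired analysis was possible because the libraries used here form a single group. Genes under 10 reads on average, 9 of the 35, were too shallow to test.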

Other observations

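Of the carriers of other metals, 20 of the 20 genes on the list were expressed in 22Rv1 WT cells, at a median of 1049.7 normalized counts against 1113 over all expressed genes. The iron genes led it, with the transferrin receptor TFRC at 11586 ± 186 normalized counts (SD, n = 3) and the ferritin chains FTL and FTH1 at 10948 ± 713 and 10639 ± 248. Per kilobase FTL reached 12570 and FTH1 8843, below MT2A with 15755 and above MT1X with 5634. SLC11A2, which imports iron and other divalent metals, had 4815 ± 67.7 normalized counts, and SLC25A37, the mitochondrial iron importer, 4578 ± 42.6. Against sampling noise 8 of the 20 differed between the libraries, a share near the 41.9% of all tested genes, and 0 of the 20 did so with the edgeR dispersion added (0 also at an unadjusted p under 0.05).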
